A study of Mus musculus with 4 samples.

Results

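Genes that mark the projection neurons of the neocortex were followed in 4 bulk messenger RNA sequencing libraries of mouse brain, 2 from Stra8-KO (KO) and 2 from wild-type (WT) animals. The 9 genes were taken by name from 55414 genes in the count table, with earlier results of these data known. Upper layers were represented by Cux1, Cux2, Rorb and Rasgrf2, and deep layers by Tbr1, Fezf2, Bcl11b, Foxp2 and Etv1. Stra8 is induced by retinoic acid in germ cells and is needed there for entry into meiosis. The series design states that animals of both genotypes carried pStra8-GFP, a transgene with a green fluorescent protein under control of the promoter of Stra8, and that the sequenced cells were sorted from hippocampus for it, whereas the sample labels give brain as the tissue. The labels do not give the age, the sex or the number of animals behind a library, or whether animals were pooled, so the p-values compare these libraries and their spread, which may be technical. Fewer cells of a type and less RNA per cell cannot be told apart in such bulk libraries.

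Excitatory projection neurons of the neocortex are stacked in layers that differ in birth order and in the targets of their axons. Upper layer neurons mostly connect areas of cortex with each other, and deep layer neurons also send axons to the thalamus, brainstem and spinal cord. A small set of transcription factors that repress or activate each other fixes these fates in the embryo, and many of them stay on in the adult. Few are specific to cortex. Bcl11b is also made by striatal projection neurons and by hippocampal neurons, Foxp2 by neurons of the striatum, the thalamus and the Purkinje cells, Rorb by sensory nuclei of the thalamus, and Etv1 by cerebellar granule cells.

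Total counts were 82172740 and 71097417 in KO libraries 1 and 2, and 80310856 and 81905583 in WT libraries 1 and 2. Stra8, the targeted gene, had 7 and 4 reads in the KO libraries against 5 and 1 in the WT libraries, so its counts do not check the genotype labels. Every gene of the lists used here was detected in all 4 libraries, including markers of striatum, thalamus and cerebellum, tissues outside the hippocampus. Values per library are CPM, read counts scaled to library size, and a gene was called changed at a Benjamini-Hochberg adjusted p under 0.05 over all 21592 genes tested (edgeR quasi-likelihood test, n = 2 libraries per genotype). All 9 layer genes were deep enough to be tested, with mean counts from 1924 for Foxp2 to 10548 for Bcl11b.

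Of the 9 layer genes 4 rose in KO, 1 fell and 4 did not pass the test. The rises were those of Foxp2, Cux2, Tbr1 and Rorb, and the fall was that of Etv1. All of the changes were small, with fold changes from 0.863 for Etv1 to 1.18 for Foxp2, so that a minimum of 1.2-fold left 0 of them. Across all genes tested 6.53% were called, 3.35% higher and 3.19% lower. Among the 5621 genes whose mean counts lay within the range of the layer genes 11.1% were called, 5.53% in each direction. The genotypes did not overlap for 7 of the 9 genes, against 45.7% of all genes tested and 54.1% of those in the same range of counts. Both layers held changed genes, since 2 of 4 upper layer genes rose and 0 fell, and 2 of 5 deep layer genes rose and 1 fell.

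The promoters of the changed genes are shown because the genes moved both ways between the same libraries. RefSeq promoters of build GRCm38.p6 were found for 8 of the 9 genes, all but Foxp2, and the 250 bases before the first listed start are printed for the 4 changed genes that have one. They lie at chr5:122049852-122050101 on the minus strand, chr19:19111197-19111446 on the minus strand, chr2:61804203-61804452 on the plus strand and chr12:38779832-38780081 on the plus strand, and each is written 5′ to 3′ on the gene's own strand. Capitals mark the homeodomain core TAATTA, the only motif of those searched that was present in these 4 windows.
Cux2: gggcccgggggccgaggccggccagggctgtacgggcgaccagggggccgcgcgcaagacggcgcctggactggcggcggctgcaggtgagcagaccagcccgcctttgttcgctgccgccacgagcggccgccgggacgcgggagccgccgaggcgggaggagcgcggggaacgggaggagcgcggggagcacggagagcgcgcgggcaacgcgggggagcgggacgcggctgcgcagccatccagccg
Rorb: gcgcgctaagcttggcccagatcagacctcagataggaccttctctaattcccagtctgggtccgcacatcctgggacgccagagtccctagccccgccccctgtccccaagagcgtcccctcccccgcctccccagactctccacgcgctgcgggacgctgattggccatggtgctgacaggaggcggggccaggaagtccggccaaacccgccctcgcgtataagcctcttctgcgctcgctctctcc
Tbr1: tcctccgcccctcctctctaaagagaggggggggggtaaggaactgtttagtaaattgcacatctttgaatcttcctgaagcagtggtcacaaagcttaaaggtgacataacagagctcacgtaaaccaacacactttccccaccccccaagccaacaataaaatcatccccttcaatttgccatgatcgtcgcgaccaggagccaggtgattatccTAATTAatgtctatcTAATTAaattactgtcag
Etv1: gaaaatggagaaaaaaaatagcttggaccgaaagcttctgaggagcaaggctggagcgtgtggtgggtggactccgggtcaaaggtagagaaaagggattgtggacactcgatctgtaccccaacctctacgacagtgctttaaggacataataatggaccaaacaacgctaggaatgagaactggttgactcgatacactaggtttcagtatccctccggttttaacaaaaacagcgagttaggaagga

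The searched motifs, on both strands, were general sites of some factor classes to which layer genes belong. The E-box was added because Stra8 resembles basic helix-loop-helix proteins. The motifs were TAATTA for homeodomain proteins, AGGTCA for nuclear receptors, TGTTTAC for forkhead proteins, TCACACC for T-box proteins, CCGGAAGT for ETS proteins and CACGTG for the E-box. No motif was searched for zinc finger factors, the class of Fezf2 and Bcl11b. The Tbr1 window held TAATTA at 2 places, which begin 33 and 18 bases before the start, and 4.84% of 32851 windows of the same length hold it. Among the unchanged genes the Rasgrf2 window held CACGTG (6.02% of all windows) and the Cux1 window TGTTTAC (3.17%). The nuclear receptor, T-box and ETS motifs, which stand in 14%, 3.33% and 2.88% of all windows, were not found in the windows of the 8 genes. The 4 printed windows differed in base composition. The Cux2 window had 80.0% G and C and 40 CpG dinucleotides, and the Rorb window 66.0% and 18. The Etv1 window had 46.4% and 9, and the Tbr1 window 45.2% and 5. A second listed start of Cux2, Rorb and Etv1, not printed, had other values. Its window had 55.2% and 3 for Cux2, 39.2% and 4 for Rorb, and 44.4% and 1 for Etv1. The median over all windows was 52.4% with 6 CpG dinucleotides. The printed windows of a rising gene, Tbr1, and of the falling gene, Etv1, had similar shares of G and C. Whether composition bears on direction was not tested.

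Cux2, a cut homeodomain transcription factor of upper layer neurons that shapes their dendrites and spines, had the smallest adjusted p of the rises. It had 126 and 131 CPM in KO libraries 1 and 2, against 112 and 110 CPM in WT libraries 1 and 2. Both KO libraries were above both WT libraries, and each library differed from its partner by less than the genotypes did. Its fitted level was 15.9% higher in KO (log2 fold change 0.21, SE 0.025, edgeR adjusted p = 1.69e-06), and the ratios of single KO to single WT libraries ran from 1.13 to 1.19. Its paralog Cux1, also a cut homeodomain factor of upper layer neurons, moved far less. Cux1 had 109.97 and 109 CPM in the KO libraries and 105 and 107 CPM in the WT libraries. The pairs did not overlap, but the gap was small and the log2 fold change of 0.046 was not called (95% interval -0.0046 to 0.096, edgeR adjusted p = 0.349). The intervals of the 2 paralogs did not overlap, since that of Cux2 ran from 0.16 to 0.26. The Cux1 gene also gives rise to CASP, a Golgi protein without the homeodomain, and the counts of the whole gene do not separate its products. Genes that overlap Cux1 on the same strand held reads equal to at most 0.825% of those of Cux1 each.

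Rorb, an orphan nuclear receptor that marks the neurons on which thalamic axons end in sensory cortex, rose by a smaller amount. It had 52.9 and 54.9 CPM in the KO libraries against 47.5 and 50.8 CPM in the WT libraries. WT library 2 came close to KO library 1, and the WT pair differed by 1.07-fold, the widest spread of any WT pair among the 9 genes. The rise of Rorb was 9.63% (log2 fold change 0.13, SE 0.037, edgeR adjusted p = 0.0306). The call was lost without WT library 1 (log2 fold change 0.087, edgeR adjusted p = 0.395), without KO library 2 (0.11, edgeR adjusted p = 0.151) and with the DESeq2 test (0.13, DESeq2 adjusted p = 0.0838). Rasgrf2, an exchange factor that activates the small GTPases Ras and Rac and is used as a marker of superficial cortex, had 123 and 121 CPM in the KO libraries against 123 and 122 CPM in the WT libraries. The genotypes overlapped, and the log2 fold change was -0.0044 (95% interval -0.052 to 0.043, edgeR adjusted p = 0.959). The upper bound of that interval lies under the lower bound of 0.16 for Cux2.

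**Figure D1:**
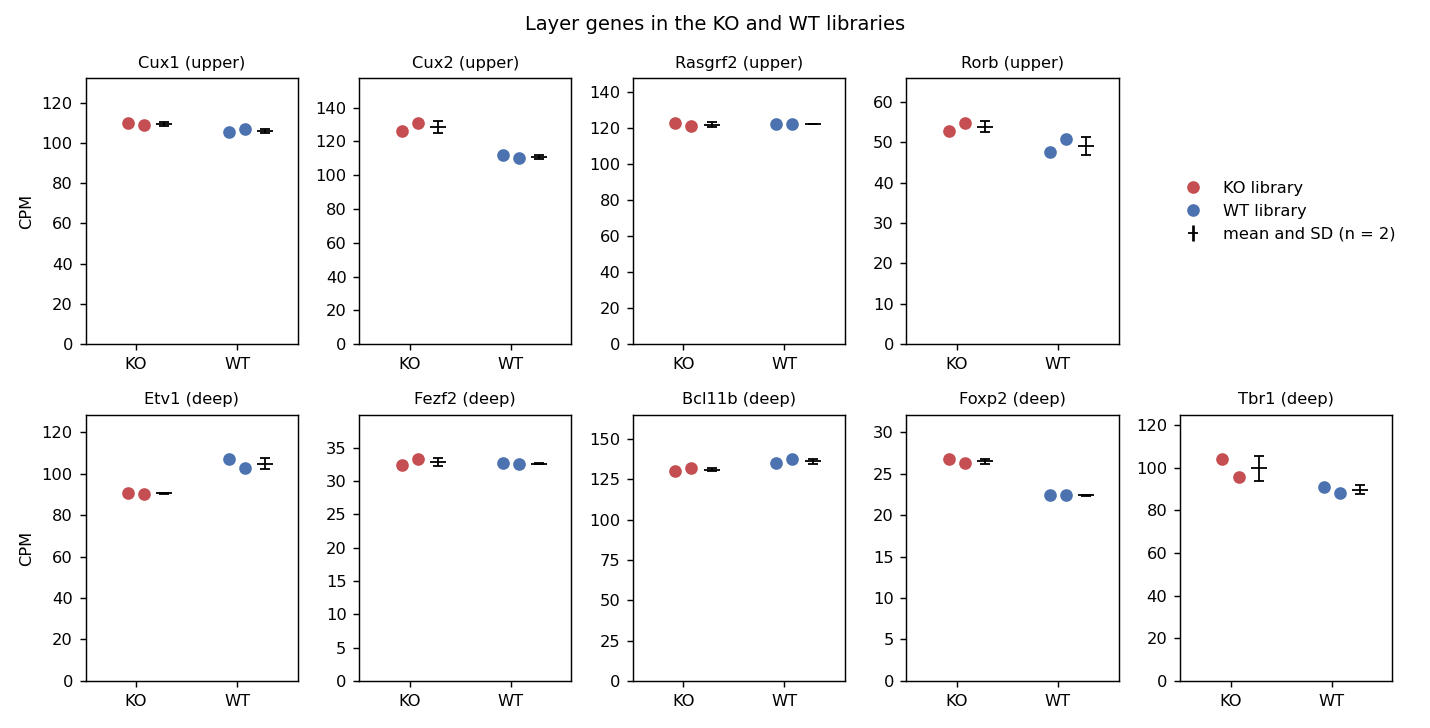
Scaled read counts (CPM, linear axis from 0, a separate scale for each gene) of the 9 layer genes in each KO and WT library, upper layer genes in the top row and deep layer genes in the bottom row. Dots are libraries and bars the mean and SD of 2. KO lies above WT for Cux1, Cux2, Rorb, Foxp2 and Tbr1 and below it for Bcl11b and Etv1. The gaps of Cux1 and Bcl11b are narrow and were not called. The genotypes overlap for Rasgrf2 and Fezf2.

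Among deep layer genes, Foxp2 had the highest fold change of the 9. Foxp2 is a forkhead transcription factor of corticothalamic neurons, known in humans for its link to speech. It had 26.7 and 26.3 CPM in the KO libraries against 22.4 and 22.5 CPM in the WT libraries. The 2 libraries of each genotype were nearly equal, and the genotypes were far apart by comparison. The rise of Foxp2 was 18.2% (log2 fold change 0.24, SE 0.050, edgeR adjusted p = 0.00251), and the log2 fold change ranged from 0.23 to 0.25 with any 1 library left out.

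Tbr1, a T-box transcription factor that sets corticothalamic fate and represses Fezf2 in the deepest layer, also rose. It had 104 and 95.7 CPM in the KO libraries against 91.2 and 88.4 CPM in the WT libraries. Both KO libraries were higher, but KO library 1 stood 1.09-fold above KO library 2, the widest spread of any pair among the 9 genes. The rise of Tbr1 was 11.3% (log2 fold change 0.15, SE 0.032, edgeR adjusted p = 0.00226). Without KO library 1 the log2 fold change was 0.092 and no longer called (edgeR adjusted p = 0.0856).

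Fezf2 and Bcl11b did not pass the test. Fezf2, the zinc finger factor at the head of the program for corticospinal neurons, had 32.4 and 33.3 CPM in the KO libraries against 32.7 and 32.6 CPM in the WT libraries. The genotypes overlapped and the log2 fold change was 0.0086 (95% interval -0.081 to 0.098, edgeR adjusted p = 0.958). Bcl11b, the zinc finger factor also called CTIP2 that acts downstream of Fezf2 in those neurons, had 130.3 and 132 CPM in the KO libraries against 135 and 137 CPM in the WT libraries. Both KO libraries lay below both WT libraries by a narrow margin, and the log2 fold change of -0.056 was not called (95% interval -0.10 to -0.0094, edgeR adjusted p = 0.171).

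Etv1, an ETS transcription factor of neurons in the upper part of the deep layers, was the only one of the 9 genes that fell. It had 90.7 and 90.5 CPM in the KO libraries against 107 and 103 CPM in the WT libraries. The KO pair was nearly equal and lay below both WT libraries. The level of Etv1 in KO was 0.863 of that in WT (log2 fold change -0.21, SE 0.027, edgeR adjusted p = 5.56e-06), and the log2 fold change ranged from -0.24 to -0.18 with any 1 library left out. The fall of Etv1 and the rise of Cux2 were thus of nearly equal size in opposite directions.

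**Figure D2:**
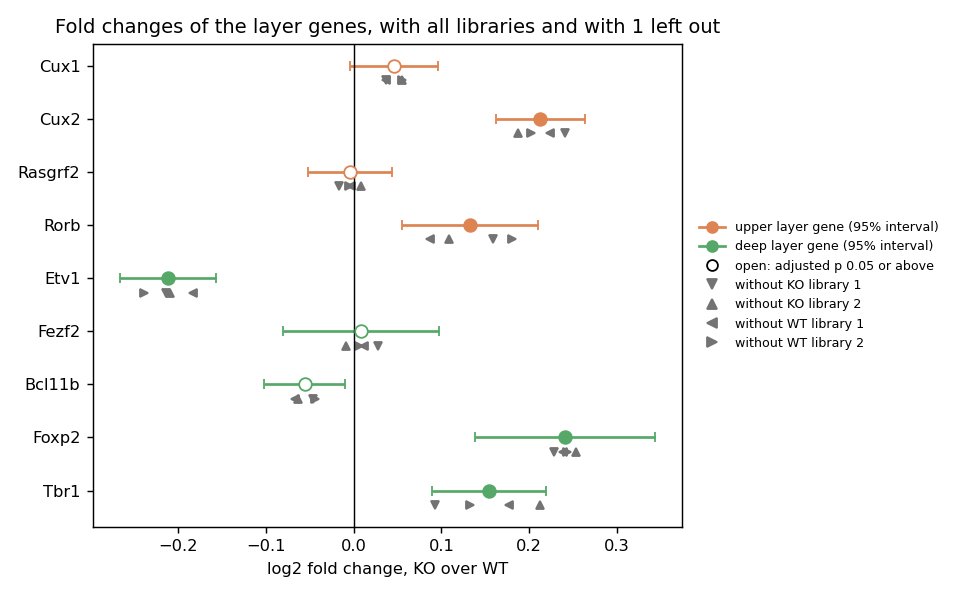
Log2 fold change (KO over WT) of each layer gene with its 95% interval, filled where called, and below it in grey the value with 1 library left out. Cux2, Foxp2 and Etv1 keep their distance from 0 in every case, Tbr1 comes closest to 0 without KO library 1 and Rorb without WT library 1.

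Upper and deep layer genes were then set against each other as groups, without a test, since genes are not replicates of a condition. The median log2 fold change was 0.089 over the 4 upper layer genes and 0.0086 over the 5 deep layer genes, beside -0.00038 over all genes tested. The upper layer values ran from -0.0044 to 0.21 and lay within the deep layer range of -0.21 to 0.24. Summed over genes, the upper layer genes had 412 and 416 CPM in the KO libraries against 387 and 389.9 CPM in the WT libraries. The deep layer genes had 384 and 378 CPM in the KO libraries against 388 and 384 CPM in the WT libraries. The upper layer sum was thus higher in both KO libraries, while the deep layer sums of the genotypes lay side by side. The reading depended on the summary used. The mean log2 CPM of deep layer genes was 5.997 and 5.979 in KO libraries 1 and 2, against 5.969 and 5.954 in WT libraries 1 and 2. It was thus slightly higher in both KO libraries. That of upper layer genes was 6.61 and 6.62 in KO against 6.51 and 6.53 in WT. The mean log2 CPM of deep layer genes minus that of upper layer genes was -0.61 and -0.65 in KO libraries 1 and 2, and -0.54 and -0.58 in WT libraries 1 and 2. Single genes weigh heavily in such small groups. The lowest deep layer value was that of Etv1 (-0.21), and the highest upper layer value that of Cux2 (0.21). The groups were not compared without Etv1 or Cux2, so these summaries do not show a difference between layers as such. With 1 library left out the median of the upper layer genes was lowest without WT library 1 (0.062) and highest without WT library 2 (0.118). That of the deep layer genes was lowest without KO library 2 (-0.0089) and highest without KO library 1 (0.028).

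Levels of different genes were compared per length, as TPM (counts per exon length, scaled to the library). The length was that of all annotated exons of a gene merged, in GENCODE M21, an annotation of build GRCm38. It ran from 3047 bases for Fezf2 to 20024 for Cux1. It can exceed the length of the transcripts present, which lowers the TPM, so the order of the genes depends on it. By this measure Tbr1 and Bcl11b were the most abundant of the 9. Tbr1 averaged 67.8 ± 4.09 TPM in KO and 62.2 ± 1.99 TPM in WT, and Bcl11b 60.2 ± 0.432 TPM in KO and 63.8 ± 0.0780 TPM in WT (SD, n = 2 each). Their order by this measure differed between the genotypes, with a narrow margin in WT. In KO both Tbr1 libraries (70.7 and 64.9 TPM) were above both Bcl11b libraries (59.9 and 60.5 TPM), and in WT both Tbr1 libraries (63.6 and 60.8 TPM) were below both Bcl11b libraries (63.8 and 63.9 TPM). Rasgrf2, Cux2 and Fezf2 followed, with 49.2, 47.5 and 40.1 TPM in KO and 50.4, 41.8 and 40.7 TPM in WT. Etv1, Cux1 and Rorb had 25.4, 20.3 and 18.1 TPM in KO and 29.99, 20.1 and 16.9 TPM in WT. Foxp2 was the least abundant, with 6.03 TPM in KO and 5.21 TPM in WT. Apart from the first pair, the libraries of neighbouring genes in this order did not overlap. Among the genes tested, Foxp2 stood at percentile 43.8 and Tbr1 at percentile 87.3.

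Other layer markers were read from wider lists, of which all members were tested. Among 14 further upper layer genes 7 rose, 1 fell and 6 did not pass, with a median log2 fold change of 0.13. Lamp5, a lysosome-associated membrane protein of superficial neurons, had 129 and 127 CPM in the KO libraries against 110 and 112 CPM in the WT libraries (log2 fold change 0.20, edgeR adjusted p = 2.50e-06). Pou3f2, the POU factor also called Brn2 that promotes upper layer fate, had 41.1 and 40.99 CPM in the KO libraries against 33.6 and 34.7 CPM in the WT libraries (0.26, edgeR adjusted p = 8.90e-05). Plxnd1, a semaphorin receptor, rose by 0.16 on the log2 scale. Otof, the calcium sensor otoferlin, rose by 0.21, a call that was lost without WT library 2 (0.16, edgeR adjusted p = 0.0700). Pou3f3, a close relative of Pou3f2, did not pass, with a log2 fold change of 0.064. The number of rising genes was 3 without WT library 2 and 4 with DESeq2, and the single fall was lost without WT library 1, WT library 2 or KO library 1. With a minimum of 1.2-fold 1 gene rose and 0 fell.

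Among 23 further deep layer genes 5 rose, 2 fell and 16 did not pass, with a median of 0.062. Syt6, a synaptotagmin of the deepest layer, had 45.3 and 46.1 CPM in the KO libraries against 37.4 and 38.2 CPM in the WT libraries (log2 fold change 0.27, edgeR adjusted p = 2.58e-05). Ccn2, a secreted matrix protein that marks the subplate-derived neurons at the base of the cortex, had 37.6 and 38.5 CPM in the KO libraries against 32.5 and 32.8 CPM in the WT libraries (0.22, edgeR adjusted p = 0.00103). The transcriptional repressor gene Bcl6 fell by 0.18 on the log2 scale (edgeR adjusted p = 0.00251). Crym, which binds thyroid hormone, also fell by 0.18, and was not called without WT library 2 (-0.14, edgeR adjusted p = 0.0721). With WT library 1 left out 2 genes rose, with WT library 2 left out 3 rose and 1 fell, and 3 rose with KO library 1 left out and with DESeq2. With a minimum of 1.2-fold 1 rose and 0 fell.

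Regulators of projection neuron fate were divided, with 3 of 20 higher, 8 lower and 9 not called (median -0.016). Mef2c, a MADS-box factor of cortical neurons and their synapses, rose by 0.26 (edgeR adjusted p = 8.42e-11). In contrast Neurod2, a basic helix-loop-helix factor of forebrain excitatory neurons, had 90.5 and 89.1 CPM in the KO libraries against 105 and 106 CPM in the WT libraries (log2 fold change -0.24, edgeR adjusted p = 6.82e-07). Zbtb18, a zinc finger repressor, fell by 0.14. The lowest value of this list was that of Eomes, the T-box factor of intermediate progenitors, at -0.52 (edgeR adjusted p = 7.95e-05), a gene chosen after its value was seen.

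Genes common to excitatory neurons of cortex and hippocampus had a median of -0.010, with 2 of 10 higher, 3 lower and 5 not called. Slc17a7, the vesicular glutamate transporter, had 1179 and 1184 CPM in the KO libraries against 1146 and 1168 CPM in the WT libraries (log2 fold change 0.031, edgeR adjusted p = 0.199). Arpp21, a phosphoprotein gene, rose by 0.25, and Nptx1, a synaptic pentraxin gene, fell by 0.18. Scaled to the summed counts of this list in place of all genes, the 5 called layer genes were still called in the same direction. That scaling raised the log2 fold changes of all genes by a median of only 0.020, so it could hardly remove or reverse these calls. In that scaling the upper layer median was 0.11 and the deep layer median 0.028.

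Markers of other brain regions also differed between the genotypes. Of 14 genes of striatal projection neurons 13 rose and 0 fell, with a median of 0.27, and their summed level was 1557 and 1553 CPM in KO against 1338 and 1336 CPM in WT. Penk, the enkephalin precursor, had a log2 fold change of 0.31. Of 8 thalamic genes 3 rose and 0 fell, with a median of 0.14, and their sum was 302 and 309.5 CPM in KO against 281.0 and 281.0 CPM in WT. Without KO library 2 only 1 thalamic gene was called. Of 12 cerebellar genes 11 fell and 0 rose, with a median of -0.73, and their sum was 913 and 917 CPM in KO against 1165 and 1175 CPM in WT. Cbln3, a secreted protein of granule cells, had a log2 fold change of -1.23. Of 11 genes of hippocampal granule and pyramidal cells 9 fell and 0 rose, with a median of -0.36, and their sum was 470.5 and 459 CPM in KO against 516 and 520 CPM in WT. C1ql2, a synaptic organizer of dentate granule cells, had a log2 fold change of -0.63. No member of these lists was at 0 in any library. Foxp2 (striatum and thalamus), Rorb (thalamus) and Bcl11b (striatum and hippocampus) are also made in those regions, and Etv1 and Foxp2 in cerebellum. The part of those regions in the values of the layer genes, the further layer markers and the fate regulators was not tested. The same holds for the genes common to excitatory neurons, Arpp21 among them.

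**Figure D3:**
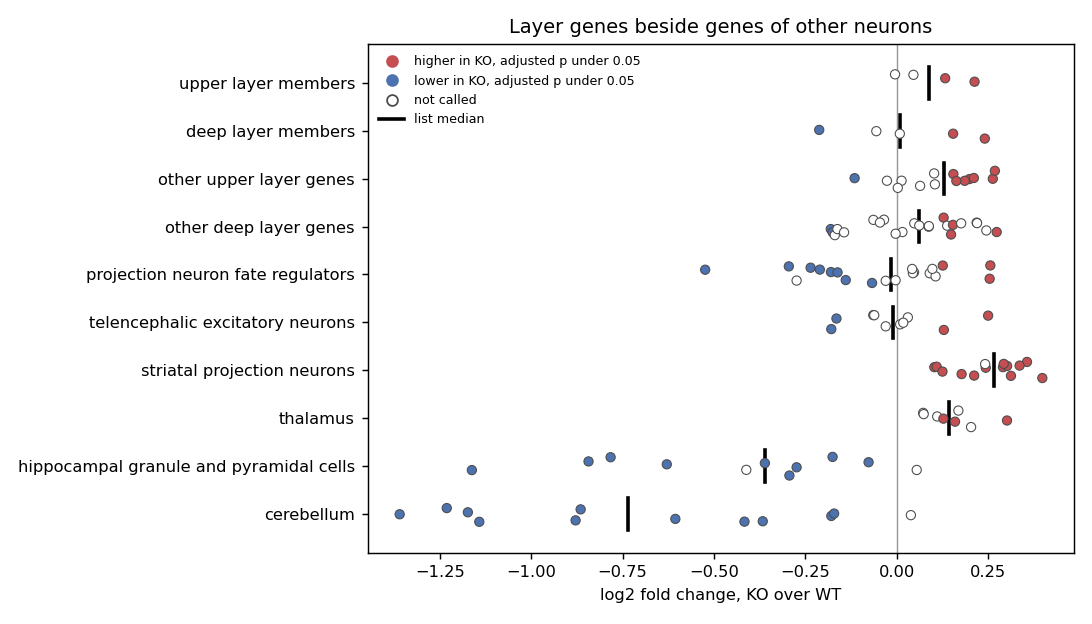
Log2 fold change (KO over WT) of every gene in the lists of layer genes, fate regulators and neurons of other regions, with black bars at list medians. Layer genes stand on both sides of 0 between -0.21 and 0.24, striatal genes lie to the right with a median of 0.27, and hippocampal and cerebellar genes lie to the left with medians of -0.36 and -0.73.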

How the data were processed

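Strand-specific libraries of oligo dT captured RNA were read as pairs, per the labels' protocols. The table deposited by the authors holds raw counts per gene. FastQC, STAR 2.6.1c, featureCounts and DESeq2 with build GRCm39 are named in the submitters' processing notes, without their roles; the annotation, the strand setting and how multi-mapped reads were handled are not stated in these sources. Of counts from 1 to 20, 72.8% to 74.3% per library were even, so both mates of a pair appear to have been counted.

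Columns were matched to samples by name, and symbols to 52081 of 55414 identifiers through GENCODE M21. The names of both KO columns carry a suffix that those of the WT columns lack, and its meaning is not stated. A difference in origin or handling behind it could not be told apart from genotype. Genes passing filterByExpr (minimum count 10) were scaled by TMM (factors 0.997 to 1.005) in edgeR 4.0.16 under R 4.3.3 and tested for genotype with glmQLFit and glmQLFTest. Fold changes are KO over WT, and a standard error is the log2 fold change over the square root of F. The members, lists and tests were chosen with earlier results of these data known. Named are the 9 members and, of each wider list, up to 4 called genes with the smallest p and 2 uncalled ones with the highest CPM, some of which are not reported here. DESeq2 1.42.0, limma 3.58.1 and other settings served as alternatives. The procedure was also run on simulated counts, which did not imitate the counting of both mates, and the outcome is not reported here.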

Additional observations from a re-analysis of the deposited data

How the results depend on the processing

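With all libraries 1411 genes were called, and refits with 1 library left out called between 1064 and 1273 genes in all, 4 or 5 of them layer genes. A left-out library leaves a lone one that is assumed to vary like the other genotype's pair. The upper layer median ranged from 0.062 to 0.118 and the deep layer median from -0.0089 to 0.028 with 1 library left out, and both were higher (0.11 and 0.028) when libraries were scaled to telencephalic excitatory neuron genes. A minimum change of 1.2-fold left 318 genes and 0 layer genes, 7 striatal and 1 thalamic gene higher, and 0 fate regulators higher and 2 lower. DESeq2 called 1011 genes and 4 layer genes. Library size alone, DESeq2 size factors, no filter, a minimum count of 50, limma-trend, dispersion 0, halved counts, X and Y genes left out and an adjusted p under 0.1 each left 5 layer genes called. The replicate block called 1590 genes and 5 layer genes. The numbers are shared between genotypes, but same-numbered libraries deviated together only with r = 0.050 over 15156 genes, so they were not taken as pairs. No layer gene that was called changed direction in any of these settings. Foxp2, at 1924 reads on average, is the least deeply counted, and its interval of 0.14 to 0.34 is the widest of the 9.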

Other observations

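Genes of other cell types that share the neocortex with its projection neurons were mixed. Of 8 interneuron genes 2 rose, 1 fell and 5 did not pass, with a median log2 fold change of 0.059. Npy, the neuropeptide Y gene, had 55.4 and 55.7 CPM in the KO libraries against 48.6 and 49.0 CPM in the WT libraries (log2 fold change 0.19, edgeR adjusted p = 0.000601). Pvalb, the calcium buffer of fast-spiking interneurons and of Purkinje cells, had 42.5 and 41.1 CPM in the KO libraries against 48.2 and 48.7 CPM in the WT libraries (-0.21, edgeR adjusted p = 0.000401). Without WT library 1 the counts were 1 higher and 2 lower, with libraries scaled to telencephalic excitatory neuron genes 4 were higher, with library size alone 2 were lower, and with a minimum of 1.2-fold 0 were called. Of 5 genes of neurons in general 2 rose and 0 fell (1 rose with halved counts and 0 with a minimum of 1.2-fold), and of 9 glial genes 3 rose and 1 fell. The single glial fall, of Gfap, the intermediate filament of astrocytes, was a log2 fold change of -0.067 (edgeR adjusted p = 0.0396). It was not called without WT library 1 (-0.048, edgeR adjusted p = 0.382), without KO library 1 (-0.050, edgeR adjusted p = 0.241), with libraries scaled to telencephalic excitatory neuron genes (-0.047, edgeR adjusted p = 0.182) or with DESeq2 (DESeq2 adjusted p = 0.0857).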
